A study of Mus musculus with 5 samples.

Results

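The comparison concerned OT-I CD8+ T cells after 72 h of co-culture. OT-I cells are mouse T cells whose transgenic receptor recognises the ovalbumin peptide SIINFEKL, and here they came from spleen and lymph nodes of the strain C57BL/6-Tg(TcraTcrb)1100Mjb/J. In 1 group they were stimulated by peptide-pulsed dendritic cells (DCs) in the presence of myeloid-derived suppressor cells (MDSCs), a mixed population of immature myeloid cells that restrains T cells, and in the other by the same kind of DCs without MDSCs. T cells were then enriched by FACS and profiled on the 10x Genomics droplet platform. Cells were chosen by the library named in the deposited cell annotation: 4942 cells with MDSCs and 1926 cells without, or 6868 of the 13629 cells of the series. The remaining cells were collected before stimulation (2952 cells) or at 24 h (2247 cells with MDSCs and 1562 without). Each group was a single library, so the differences could not be checked in replicates or tested, and an effect of MDSCs cannot be told apart from any other difference between the 2 cultures or libraries.

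In activated CD8+ T cells, stimulation switches metabolism towards glycolysis, and the hypoxia-inducible factor HIF-1 drives many genes of glucose uptake, glycolysis and adaptation to low oxygen. The tumour suppressor p53 induces genes of cell cycle arrest, DNA repair and apoptosis after damage and other stresses. A lower library mean can arise because every cell holds less of a transcript or because fewer cells hold it, and single-cell data allow these patterns to be described apart.

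Both libraries carried the lineage transcripts. The CD8 beta chain Cd8b1 was detected in 99.9% of cells with MDSCs and 99.3% of cells without, and Cd3d in 100% of both. Of 14 measured T cell identity genes, 13 lay within 1.5-fold, and Cd3e was lower (175 against 313 CPM). CPM here are depth-adjusted counts per 1000000 adjusted counts of the library, and the number of molecules sequenced is unknown. The adjusted total per cell was held nearly constant by the authors' adjustment, at a median of 15948 with MDSCs and 15905 without, and the median cell had 3121 and 3220 genes above 0. Ribosomal protein genes took 37.8% of the adjusted counts with MDSCs and 35.9% without. No cell of either library held 3 or more of the 4 granulocyte, 3 B cell or 5 erythroid or platelet markers measured. At least 3 of 8 monocyte and macrophage markers were found in 24 cells with MDSCs and 2 cells without. At least 3 of 10 dendritic cell markers were found in 34.0% of cells with MDSCs against 30.8% of cells without, but Ccr7, Cst3 and Batf3, the only ones of that list at 10 CPM or more, are also expressed by T cells. That list summed to 357 CPM with MDSCs and 476 CPM without, and Fscn1, a marker of mature DCs, was above 0 in 0.830% of cells with MDSCs against 8.88% of cells without. Within that sum Ccr7 was lower with MDSCs (113 against 272 CPM), Batf3 was higher (82.0 against 41.2 CPM) and Cst3 lay within 1.5-fold. The summed level of the granulocyte markers was 1.21 CPM with MDSCs and 0.10 CPM without. S100a8, an abundant granulocyte transcript, was listed above 0 in 0.688% of cells with MDSCs and in no cell without, where a count of 0 allows up to 0.156% of cells with a count of it. That limit covers counting error only and does not bound the cells that express the gene. The part of such cells in the results was not tested.

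Most genes past 2-fold moved in their median over cells, by the rule for quartiles given below. A level of 50 CPM in 1 of the libraries was reached by 2420 genes. With MDSCs 47 of them were higher by 2-fold or more (1.94%) and 136 were lower by as much (5.62%), while the median log2 ratio, with MDSCs over without, was 0.022. For each of these 183 genes the ratio of means was split into a ratio of shares (cells above 0) and a ratio of levels among cells above 0. The share carried at least 66.7% of the log2 change in 11 of the 47 higher and 33 of the 136 lower genes. This count depended on the settings: with a minimum of 10 CPM it was 352 (of 131 higher and 367 lower genes), with 200 CPM 0, with means of natural log values 12, with a total that left out ribosomal protein and mitochondrially encoded genes 121, and with cells counted only above 1 it was 134. The level carried more than the same portion in 10 and 35 genes, and the rest were mixed. A quartile counted as moved when it differed at least 1.5-fold or was 0 in 1 library only. A gene spreading from few to most cells therefore also moves its median, as did Aen, led by its share (56.0% against 19.8% of cells above 0). A moved median alone thus does not show a shift of the whole distribution. All 3 quartiles over cells moved in 20 higher and 61 lower genes, and the median moved, without all quartiles doing so, in another 22 and 64. The upper quartile alone moved in 3 higher and 8 lower genes, and none of the quartiles in 2 and 3.

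A share alone does not separate the patterns, because a rare transcript that falls evenly also leaves more cells at 0. The share was therefore also set against the share that counts of the same mean would reach if scattered at random over the cells. By that measure 36 of the 2420 genes (1.49%) were held by part of the cells, with a share under 75% of the scattered one in either library. Among the 183 genes past 2-fold there were 17 such genes (9.29%), 5 higher and 12 lower. Of the 44 changed genes led by their share, 4 were held by part of the cells. Where the mean per cell is low, a subset of cells with few counts each also comes near the scattered share, so the measure can miss it.

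**Figure D1:**
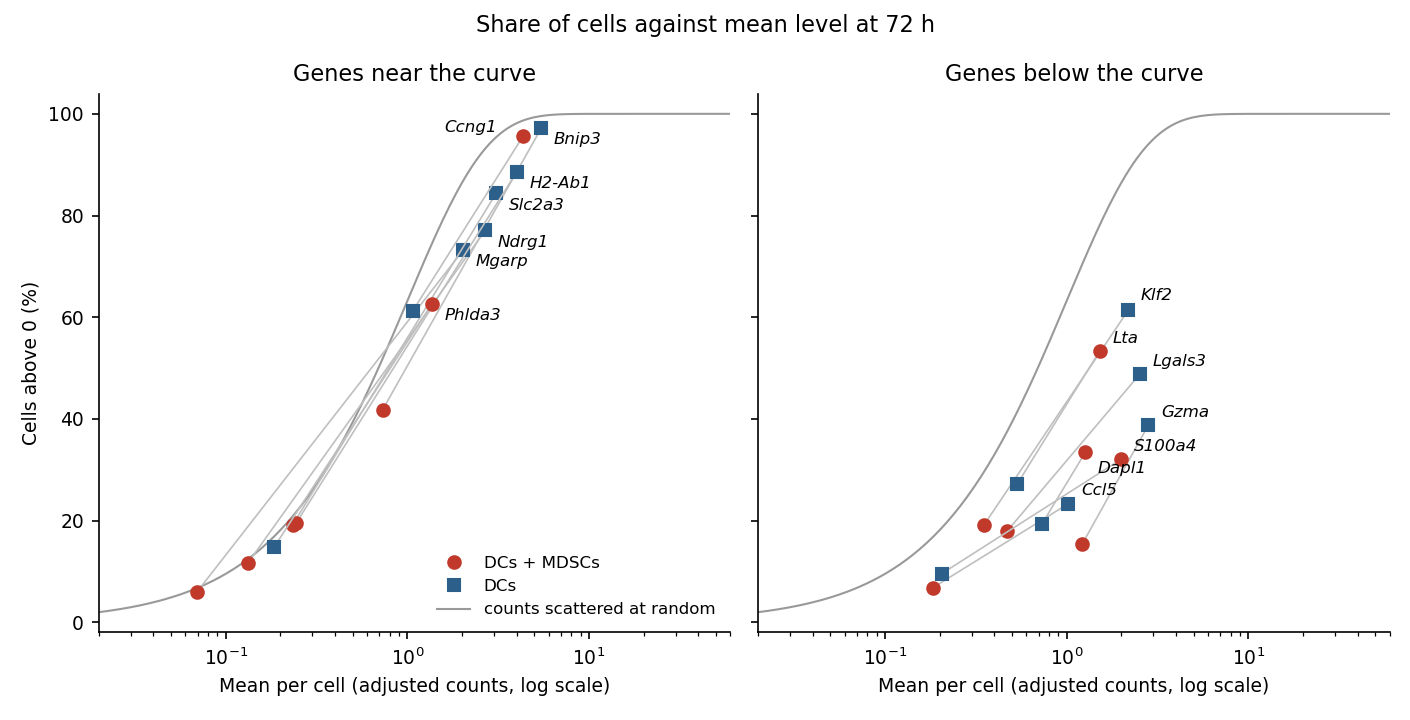
Share of cells above 0 (%) against the mean adjusted count per cell (log scale) for 7 genes in each panel. Red circles are cells with DCs + MDSCs, blue squares are cells with DCs, thin lines join the 2 libraries of a gene, and the grey curve is the share that randomly scattered counts would give. Genes on the left, such as Ndrg1 and Phlda3, lie closer to the curve but below it, down to 80.6% of its share for Bnip3 with MDSCs. Gzma, Ccl5 and S100a4 on the right lie well under it.

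The plot of share against mean shows these 2 kinds of gene. Bnip3 was above 0 in 41.8% of cells with MDSCs against 97.2% of cells without, and its mean among those cells also differed, at 1.75 against 5.63 adjusted counts. Gzma was above 0 in 15.4% against 38.7% of cells, yet its mean among those cells was 7.91 against 7.26.

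Hypoxia and HIF target genes had the lowest median of the 38 lists with at least 3 measured members, markers of other cell types aside. Of 26 listed genes 23 reached 10 CPM in either library. None was at least 1.5-fold higher and 20 were lower, with a median log2 ratio of -2.06. Over all 6591 genes at that level 7.98% were higher and 14.8% lower, with a median of -0.07. Ndrg1, a hypoxia-induced gene of stress and lipid handling, was at 8.30 CPM with MDSCs and 169 CPM without (log2 ratio -4.34). Ankrd37, a small ankyrin repeat gene, was at 19.9 against 232 CPM. Bnip3 and Bnip3l, receptors that send mitochondria to autophagy, were at 45.9 against 344 CPM and 92.8 against 386 CPM. Ero1l, an oxidase of disulfide formation in the endoplasmic reticulum, was at 38.5 against 345 CPM. The prolyl hydroxylases Egln1 and Egln3, which mark HIF for degradation and are themselves HIF targets, were at 15.1 against 86.2 CPM and 23.6 against 184 CPM. Pdk1, a kinase that inhibits pyruvate dehydrogenase, was at 39.8 against 110 CPM. The 3 measured members within 1.5-fold were Hif1a itself (82.2 against 89.0 CPM), Mif and Plin2.

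The lower summed level covered nearly the whole cell population. The summed adjusted count of the hypoxia list had a median of 64 with MDSCs and 124 without. This sum leans on abundant members. Mif, within 1.5-fold, made up 2583 of 4044 summed CPM with MDSCs and 2891 of 7781 without. The 5th and 95th percentiles of the sum were 35 and 95 with MDSCs, against 86 and 164 without. A randomly drawn cell with MDSCs exceeded a randomly drawn cell without in 0.024 of pairs, 87.6% of cells with MDSCs lay below the 5th percentile of cells without, and 0.28% lay above their median. None of the 17 members at 50 CPM or more was held by part of the cells. With MDSCs this says little for members with a low mean. Ndrg1, for example, was above 0 in 11.6% of those cells, with a mean of 1.14 among them. In the library without MDSCs some of the transcripts were broad, with Bnip3, Slc16a3 and Ero1l above 0 in 97.2%, 93.3% and 94.2% of cells. Over all measured members that share ran from 14.8% to 100%. In values adjusted over all time points, the list had a median of 0.36 over 15 genes at 24 h, against -2.09 over 23 genes at 72 h. Members were chosen by their level at each time, so these medians cover different sets of genes.

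The promoters of this group are shown because the binding core of HIF, ACGTG, recurs in them. Windows from 250 bases before to 50 bases after the start were taken from RefSeq (GRCm38.p6) and searched for ACGTG on both strands, that is also for CACGT, and overlapping matches were counted separately. Of 19 measured members with a window, 16 held the core (84.2%), against 32.3% of the 1888 matched genes at 50 CPM or more and 21.8% of all 27025 genes. Of genes at least 2-fold lower with MDSCs 44.2% held it, and of genes at least 2-fold higher 26.3%. The lower genes include members of the hypoxia list that hold the core, such as Ankrd37, Slc16a3 and Egln3. Their share without list members was not computed, and its difference from that of the higher genes was not tested. The list was assembled from known HIF targets, so the shares of the list and of the lower genes are descriptions. A match is not a binding site. The windows of the 4 members with the lowest ratios among those holding the core follow, in the direction of the gene, with the core in capitals.
P4ha2, chr11:54100674-54100973, plus strand: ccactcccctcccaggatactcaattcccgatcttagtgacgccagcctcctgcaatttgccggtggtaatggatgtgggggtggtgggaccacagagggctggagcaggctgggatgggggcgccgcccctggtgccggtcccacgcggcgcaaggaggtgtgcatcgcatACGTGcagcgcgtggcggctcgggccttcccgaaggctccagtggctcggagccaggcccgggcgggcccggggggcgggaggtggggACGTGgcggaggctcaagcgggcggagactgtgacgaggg
Ankrd37, chr8:45999801-46000100, minus strand: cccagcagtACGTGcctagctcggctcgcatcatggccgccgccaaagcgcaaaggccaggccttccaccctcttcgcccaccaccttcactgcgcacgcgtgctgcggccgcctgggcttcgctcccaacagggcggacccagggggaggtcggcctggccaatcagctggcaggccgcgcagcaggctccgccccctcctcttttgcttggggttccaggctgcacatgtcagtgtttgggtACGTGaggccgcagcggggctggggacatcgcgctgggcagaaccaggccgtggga
Slc16a3, chr11:120948817-120949116, plus strand: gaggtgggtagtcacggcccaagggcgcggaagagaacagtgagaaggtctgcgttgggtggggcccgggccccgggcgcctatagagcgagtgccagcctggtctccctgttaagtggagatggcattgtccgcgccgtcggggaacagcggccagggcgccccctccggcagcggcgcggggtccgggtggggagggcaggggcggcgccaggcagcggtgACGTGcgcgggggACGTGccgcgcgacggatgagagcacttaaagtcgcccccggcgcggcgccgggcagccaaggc
Egln3, chr12:54203825-54204124, minus strand: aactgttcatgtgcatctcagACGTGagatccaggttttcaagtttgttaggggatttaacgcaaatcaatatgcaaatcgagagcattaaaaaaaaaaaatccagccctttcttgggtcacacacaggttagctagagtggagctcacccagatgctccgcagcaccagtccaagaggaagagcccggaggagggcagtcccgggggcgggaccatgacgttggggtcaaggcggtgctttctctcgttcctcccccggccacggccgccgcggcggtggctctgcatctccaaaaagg

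**Figure D2:**
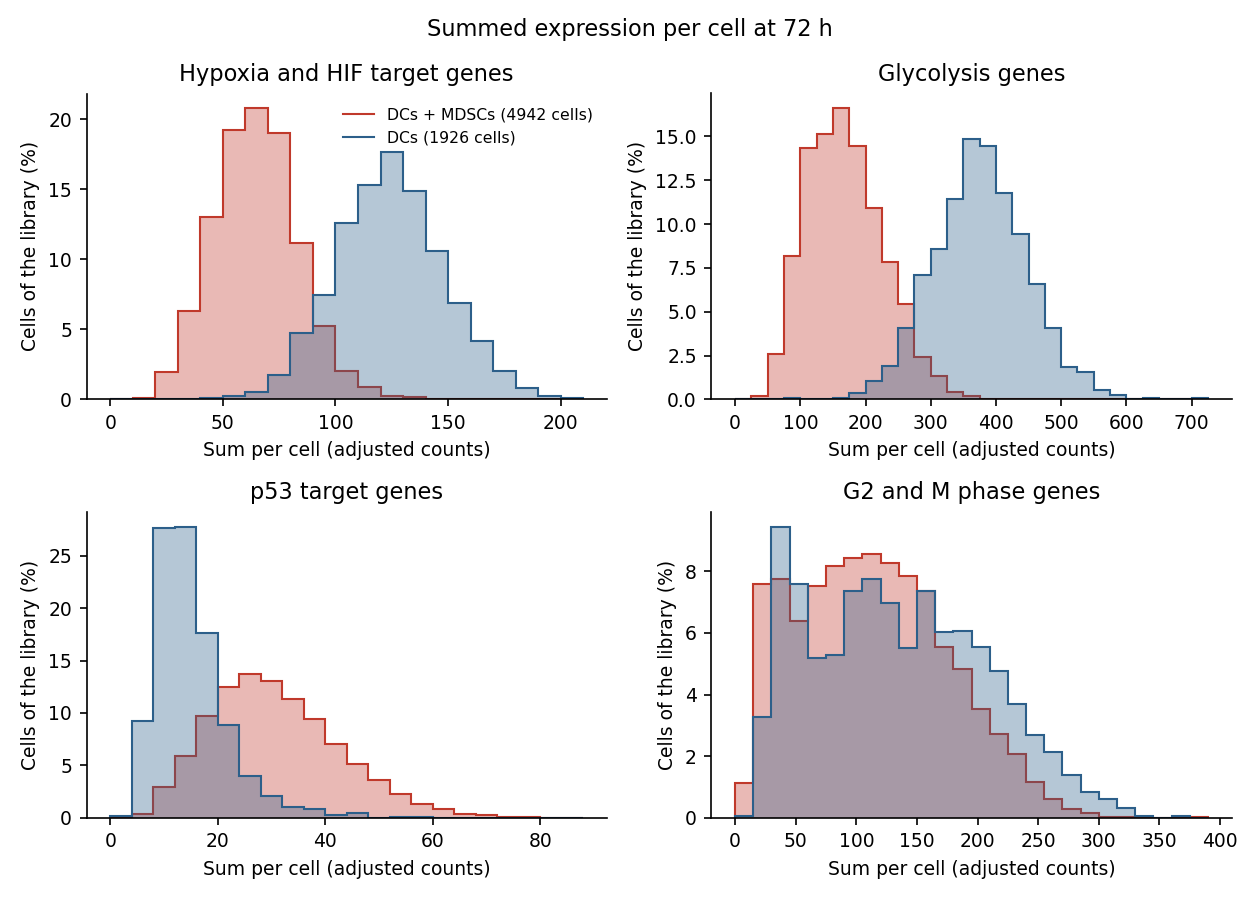
Histograms of the summed adjusted count per cell for 4 gene lists, as a percentage of the cells of each library (red, 4942 cells with DCs + MDSCs; blue, 1926 cells with DCs). The hypoxia and glycolysis sums hardly overlap, with medians of 64 against 124 and 164 against 376. The p53 sums lie higher with MDSCs (29 against 13) and the G2 and M phase sums overlap widely.

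Glycolysis genes were lower by a smaller factor and in nearly every cell, as the histograms of summed expression show. The median log2 ratio was -1.21, and 20 of 22 measured members were at least 1.5-fold lower while 2 were higher. The glucose transporters Slc2a3 and Slc2a1 were at 14.7 against 193 CPM and 14.4 against 97.6 CPM, and the lactate exporter Slc16a3 at 23.7 against 217 CPM. Of the 22 members 13 moved in all 3 quartiles, by the rule given above. The enzymes Gapdh, Aldoa, Pkm and Tpi1 were abundant in both libraries and are described by their distributions. Gapdh was above 0 in every cell, at 57 against 123 adjusted counts in the median cell, and 96.0% of cells with MDSCs lay at or below the lower quartile of cells without. Aldoa, aldolase A, had a median of 26 against 60 adjusted counts, Pkm of 16 against 37 and Tpi1 of 9 against 25. The probability that a cell with MDSCs exceeded one without was 0.056 for Gapdh, 0.056 for Aldoa, 0.054 for Pkm and 0.048 for Tpi1. Other enzymes were at low levels, such as Pgk1, phosphoglycerate kinase, at 20.2 against 53.9 CPM and above 0 in 26.8% against 55.4% of cells, and Hk2, hexokinase 2, at 22.3 against 66.3 CPM. The sum over the list had a median of 164 with MDSCs and 376 without, and 92.9% of cells with MDSCs lay below the 5th percentile of cells without. Across cells, the hypoxia sum and the sum of glycolysis genes outside that list were related with a Spearman rho of 0.571 with MDSCs (4942 cells) and 0.339 without (1926 cells), where both sums share each cell's depth adjustment.

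The 2 glycolysis genes that were higher were Ldhb and Eno3, isozymes of Ldha and Eno1. Ldhb, the lactate dehydrogenase subunit that favours lactate oxidation, was at 78.6 against 11.7 CPM and above 0 in 55.9% against 14.6% of cells. Ldha was at 1803 against 3683 CPM and Eno1 at 390 against 856 CPM, while Eno3 was at 33.1 against 17.5 CPM.

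**Figure D3:**
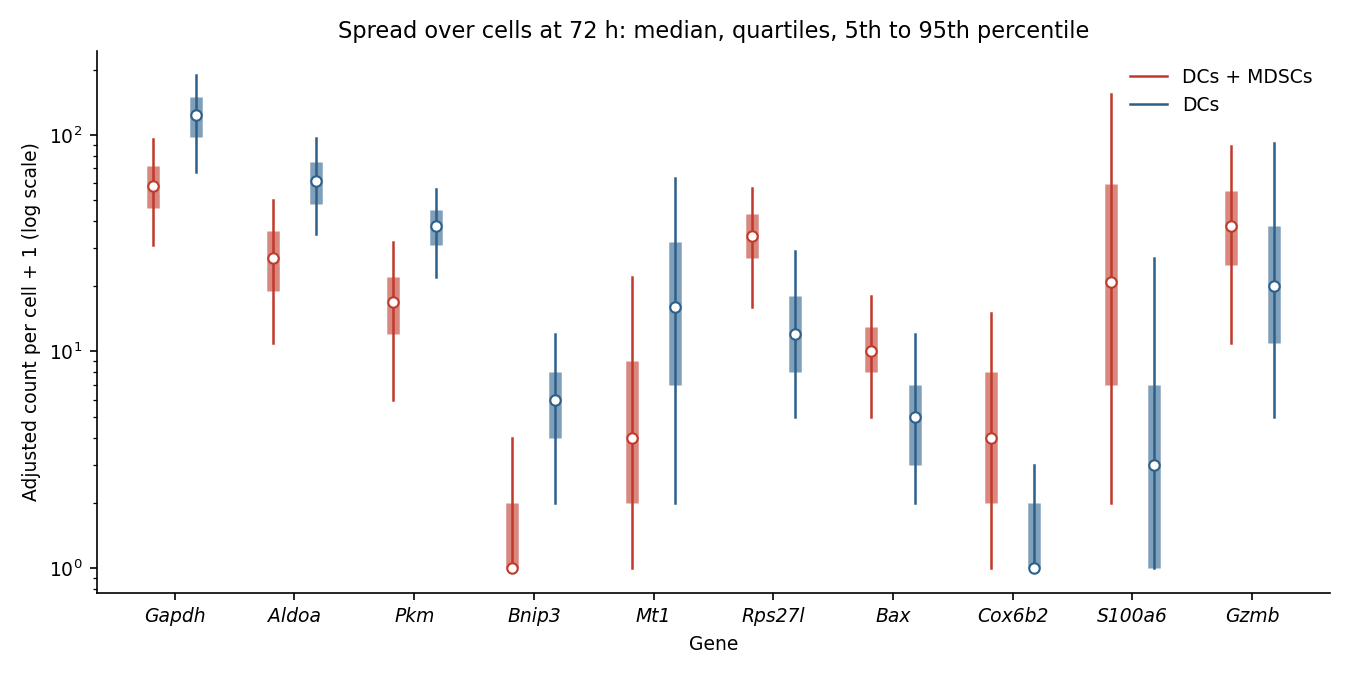
Adjusted count per cell plus 1 (log scale) for 10 genes at 72 h, with DCs + MDSCs in red on the left of each pair and DCs in blue. Circles are medians, thick bars the quartiles and thin lines the 5th to 95th percentile. Gapdh, Aldoa and Pkm are shifted as a whole, while Gzmb differs at its lower end and in its median, and not at its upper end.

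Nuclear-encoded oxidative phosphorylation genes had a median log2 ratio of 0.25 over 59 genes, within a range of -1.16 to 0.70. Of these 5 were at least 1.5-fold higher, a share near the 7.98% of all genes, and 1 was lower. The sum over the list had a median of 519 with MDSCs and 443 without and a probability of 0.827, where a sum over many genes also has less counting noise than a single gene. Against 7.98% and 14.8% of all genes, 1 of the 13 mitochondrially encoded genes was higher and 3 were lower, with a median of -0.21. Among them mt-Cytb, cytochrome b, was at 544 against 1034 CPM and mt-Co2, a cytochrome oxidase subunit, at 3425 against 2239 CPM. The sum over these 13 genes went the other way from their median ratio, at 297 with MDSCs and 233 without in the median cell (probability 0.691). Cycs, cytochrome c, was at 594 against 365 CPM. The lower nuclear-encoded member was Ndufv3, a complex I subunit, at 275 against 613 CPM. Cox6b2, a cytochrome oxidase subunit best known from testis, had the largest ratio among the 2420 genes (293 against 23.6 CPM, log2 ratio 3.64) and was above 0 in 83.3% against 28.5% of cells. Dcxr, a carbonyl reductase of pentose metabolism, was at 192 against 16.8 CPM, and 79.7% of the cells with Cox6b2 in the library with MDSCs also held Dcxr, against 39.5% of its other cells.

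Cholesterol and fatty acid synthesis genes were lower. Their median log2 ratio was -0.94, and 23 of 30 measured members were at least 1.5-fold lower and none was higher. Scd1, the stearoyl-CoA desaturase, was at 7.46 against 49.0 CPM, Srebf1, the transcription factor of the pathway, at 13.5 against 37.3 CPM, and Sqle, squalene epoxidase, at 26.0 against 52.9 CPM. The sum over the list had a median of 16 with MDSCs and 30 without (probability 0.198). None of its 15 members at 50 CPM or more was held by part of the cells, by a measure that says little where a mean is low.

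The p53 targets had the highest median of the same lists, a log2 ratio of 1.03, and 12 of their 17 measured members were at least 1.5-fold higher while 2 were lower. Phlda3, an inhibitor of AKT, was at 85.9 against 11.6 CPM, and 62.7% of cells held it against 14.8%. Ccng1, cyclin G1, was at 272 against 67.1 CPM, Aen, an apoptosis-enhancing nuclease, at 58.3 against 16.4 CPM, and Bax, the apoptosis effector, at 615 against 287 CPM. Cdkn1a, the cell cycle inhibitor p21, was at 398 against 182 CPM, Zmat3 at 36.9 against 7.10 CPM, and Mdm2, the ubiquitin ligase that restrains p53, at 52.4 against 25.6 CPM. The lower members were Gadd45b (9.43 against 57.4 CPM) and Btg2 (15.5 against 23.4 CPM), both also known as immediate early or stress-signal genes. The sum over the list had a median of 29 with MDSCs and 13 without (probability 0.888), and 54.9% of cells with MDSCs lay above the 95th percentile of cells without. That distribution was wide, from 13 at the 5th to 52 at the 95th percentile with MDSCs, against 6 and 27 without. Rps27l, a ribosomal protein-like gene known as a p53 target but not on the list, was at 33 against 11 adjusted counts in the median cell, and its probability of 0.936 was the highest of the 2420 genes. Against 7.98% and 14.8% of all genes, 7 of 19 Bcl-2 family and caspase genes were higher and 3 lower. These included the survival gene Bcl2a1b (67.1 against 27.4 CPM) among the higher and Cflar, an inhibitor of caspase-8, at 18.6 against 38.1 CPM.

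**Figure D4:**
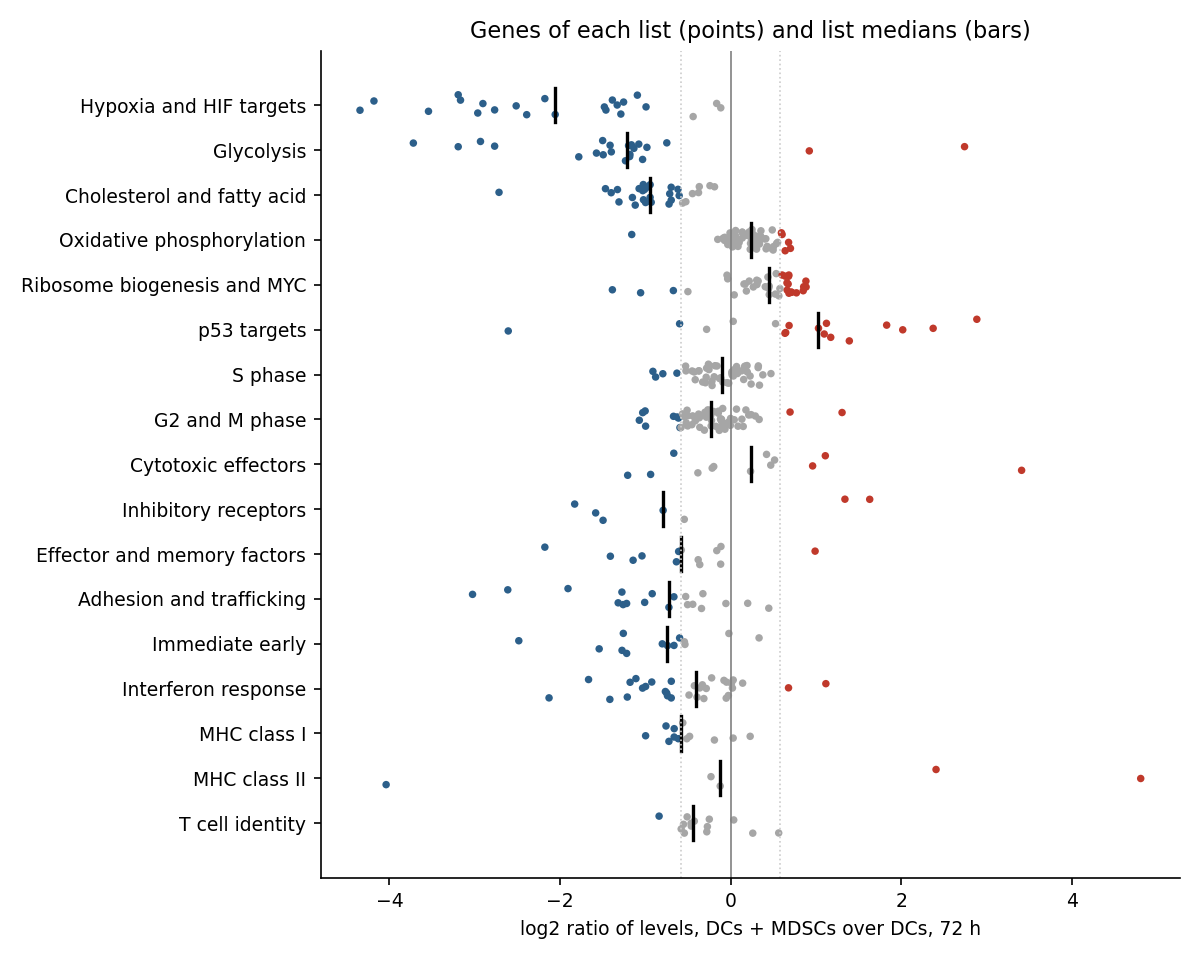
log2 ratio of levels, with DCs + MDSCs over DCs, for every member at 10 CPM or more of 17 gene lists. Points are genes (red at least 1.5-fold higher, blue at least 1.5-fold lower, grey between), black bars are list medians and dotted lines mark 1.5-fold. Hypoxia targets reach -4.34, and p53 targets reach 2.89.

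The cell cycle lists had medians slightly below 0. The S phase list had a median log2 ratio of -0.10 (0 of 50 higher, 4 lower) and the G2 and M phase list of -0.22 (2 of 61 higher, 8 lower). Over all genes 7.98% were higher and 14.8% lower, and neither list exceeded these shares. The G2 and M median was 0.02 once cells with MDSCs were weighted to the cell cycle sets of cells without. Those sets were formed from the S, G2 and M phase genes themselves, so a move towards 0 was built in. The G2 and M sum had a median of 109 with MDSCs and 128 without. It was 23 against 32 at its 5th percentile and 220 against 258 at its 95th. When cells of both libraries were ranked together by the S, G2 and M phase sum and parted into 3 sets, the highest set held 28.8% of cells with MDSCs and 45.1% of cells without, and the lowest 35.6% and 27.7%. Mki67, a proliferation marker, was at 90.2 against 135 CPM and above 0 in 61.0% against 69.5% of cells. Its log2 ratio was 0.19, -0.21 and -0.46 within the lowest, middle and highest sets, against -0.58 over all cells. Ranking the cells by cell cycle genes tends by itself to shrink ratios of such genes within the sets.

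The metabolic differences were present within each of these sets. The hypoxia median was between -2.09 and -1.99 in the 3 sets. That of glycolysis was -1.45, -1.13 and -1.09 in the lowest, middle and highest sets, and that of the p53 targets was lowest at 0.78 and highest at 1.03. Of the 47 higher genes 28 were at least 2-fold higher in all 3 sets, and of the 136 lower genes 101 were lower in all 3. Ribosome biogenesis and MYC-related genes differed most in the lowest set. There their median was 1.06, against 0.19 and 0.33 in the middle and highest, and over all cells 15 of 40 were higher and 3 lower. Srm, spermidine synthase, had log2 ratios of 1.82, 0.42 and 0.52 in this order, Myc 0.98, -0.13 and -0.19, and Cish, a feedback inhibitor of cytokine signalling, 2.37, 0.36 and 0.31. Other lists were also highest in the lowest set, where S phase genes had a median of 0.43, histones of 0.62, tRNA synthetases of 0.52 and chaperones of 0.42. S phase genes thus still differed between the libraries within that set, and the part of this in the values of ribosome biogenesis genes, Cish and Gzmb was not tested. The difference between sets was not tested either.

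**Figure D5:**
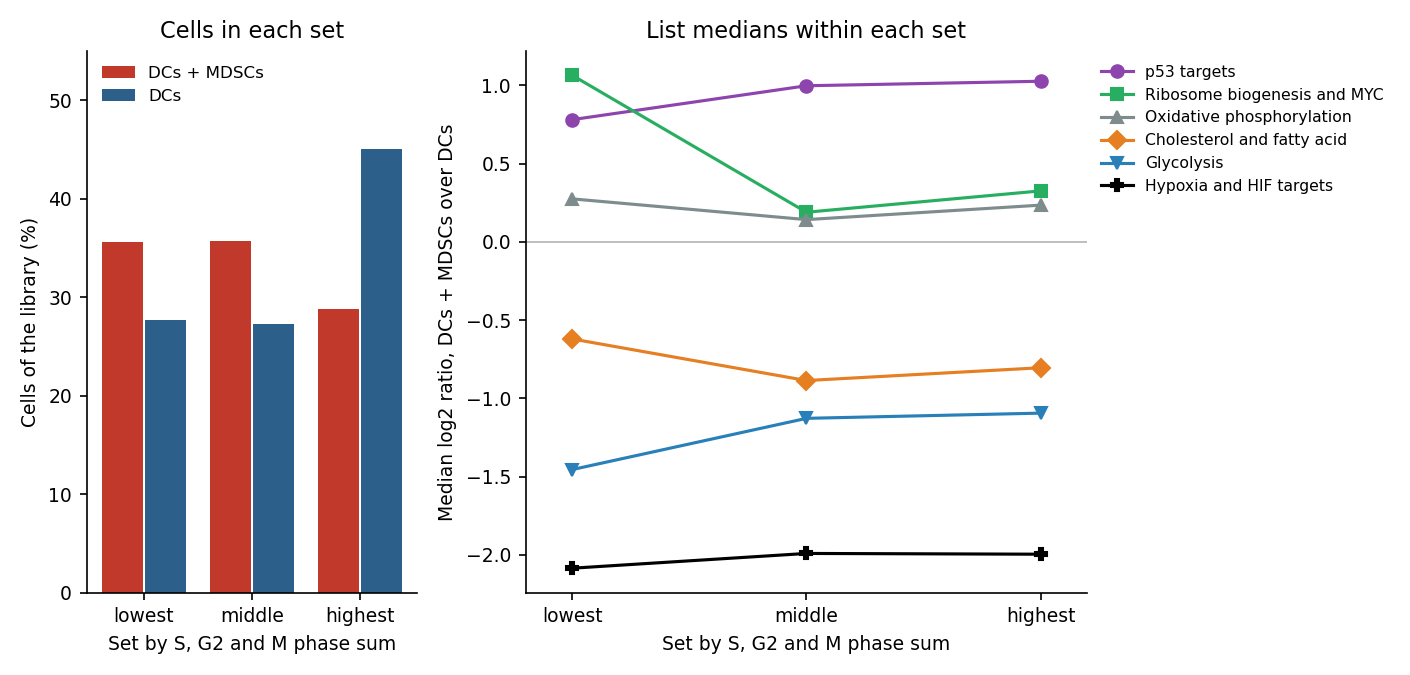
Left, percentage of each library's cells in 3 sets ranked by the S, G2 and M phase sum (DCs + MDSCs red, DCs blue). Right, median log2 ratio of 6 gene lists within each set, where the hypoxia median stays between -2.09 and -1.99 and that of ribosome biogenesis is 1.06 in the lowest set.

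Effector genes split. Gzmb, granzyme B, was found in 99.96% of cells with MDSCs and 99.5% without, and it differed at the low end of its distribution. Its 5th percentile and lower quartile were 10 and 24 adjusted counts with MDSCs, against 4 and 10 without, while its 95th percentile was 88 against 91. At or below the lower quartile of cells without MDSCs lay 5.20% of cells with MDSCs and 27.8% of cells without. In the lowest cell cycle set its log2 ratio was 1.38, against 0.12 and 0.15 in the others. Gzma, granzyme A, differed in its fraction of cells, with 15.4% (exact 95% interval 14.4 to 16.5%) against 38.7% (36.6 to 41.0%) of cells. Ccl5, a chemokine of effector and memory cells, was above 0 in 6.82% (6.13 to 7.56%) against 23.3% (21.4 to 25.3%). These intervals cover counting error only. Among cells with Ccl5, 24.9% also held Gzma with MDSCs and 48.3% without, against 14.7% and 35.8% of the cells with no Ccl5. Gzmc and Gzmf, granzymes of late effector cells, were at 21.4 against 9.91 CPM and 14.6 against 1.37 CPM, in 12.8% against 6.33% and 16.9% against 2.02% of cells. Of the 13 measured cytotoxic and effector genes 3 were higher and 3 lower, against 7.98% and 14.8% of all genes.

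Of 7 measured inhibitory receptor genes, 4 were at least 1.5-fold lower and 2 higher, against 14.8% and 7.98% of all genes. Lag3, a receptor for MHC class II, was at 46.1 against 164 CPM and above 0 in 43.9% against 81.7% of cells. Ctla4, a competitor of CD28 for its ligands, was at 47.9 against 143 CPM in 40.7% against 78.2% of cells. The higher members were Cd200 (17.6 against 5.67 CPM) and Btla (10.7 against 4.24 CPM). Pdcd1 was above 0 in 4.37% of cells with MDSCs against 2.86% without, and Havcr2 in 0.668% and 1.35%. Tnfrsf9, the costimulatory receptor 4-1BB, was at 118 against 256 CPM, while Il2ra, the alpha chain of the IL-2 receptor, was at 136 against 126 CPM. Il2rb, its beta chain, was at 58.7 against 158 CPM. Irf4, Cd69, Cd44 and Myc had log2 ratios between -0.19 and 0.20.

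Of 13 transcription factors of effector and memory cells 6 were at least 1.5-fold lower, 1 was higher and 6 lay within 1.5-fold. For this and the other lists of this paragraph, the shares over all genes were 14.8% lower and 7.98% higher. Id2, which supports effector cells, was at 61.0 against 162 CPM, Bhlhe40 at 19.6 against 88.4 CPM and Runx3 at 65.1 against 134 CPM. Batf3 was the higher one, at 82.0 against 41.2 CPM. Of 19 adhesion and trafficking genes, 11 were lower and none higher. Among them Ccr7, the lymph node homing receptor, was at 113 against 272 CPM, and S1pr4 at 24.8 against 93.0 CPM. Among 13 immediate early genes 9 were lower and none was higher, with Ier3 at 15.5 against 86.4 CPM. Such transcripts also respond to handling, whose part in the result was not tested. Among 32 interferon response genes 14 were lower, for example Iigp1 (8.95 against 39.1 CPM) and Gbp2 (38.1 against 121 CPM), and 2 were higher, Ifi35 (115 against 52.9 CPM) and Bst2 (347 against 217 CPM).

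Several other transcripts lay below the share that scattered counts would give. Klf2, a factor of quiescence and trafficking, was above 0 in 19.1% of cells with MDSCs against 61.4% without, and its mean among those cells was 1.83 against 3.55 adjusted counts. Lgals3, galectin-3, was above 0 in 17.9% against 48.9% of cells, with a mean of 2.62 against 5.19, so that for both genes share and level were lower together. Dapl1, a gene of naive and memory-like cells, was above 0 in 33.5% of cells with MDSCs (exact interval 32.2 to 34.8%) and in 19.3% of those without (17.5 to 21.1%), and its mean among those cells was 3.79 against 3.78 adjusted counts. Lta, lymphotoxin alpha, was above 0 in 53.4% against 27.3% of cells. Batf3 and Lta occurred together: in the library with MDSCs 64.4% of cells with Batf3 held Lta, against 41.2% of cells with no Batf3, and in the library without MDSCs the shares were 46.0% and 19.8%.

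Of 19 measured genes of S100 proteins, annexins, galectins and related proteins 5 were higher and 5 lower, against 7.98% and 14.8% of all genes. S100a4, a calcium-binding protein of motile and memory T cells, was at 125 against 12.9 CPM and above 0 in 32.1% against 9.55% of cells, where it averaged 6.23 against 2.15 adjusted counts. S100a6 was at 2626 against 361 CPM, with quartiles of 6, 20 and 58 with MDSCs and 0, 2 and 6 without, and 43.7% of cells with MDSCs exceeded the 95th percentile of cells without. Anxa2, annexin A2, was lower, at 147 against 561 CPM. The metallothioneins, metal-binding proteins, moved in both directions. Mt1 was at 371 against 1370 CPM and Mt2 at 262 against 631 CPM, while Mt3 was at 18.2 against 7.98 CPM.

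H2-Ab1, a beta chain of MHC class II, was above 0 in 19.5% of cells with MDSCs (exact interval 18.4 to 20.6%) against 88.6% of cells without (87.1 to 90.01%), and H2-Eb1, another beta chain, in 25.7% (24.5 to 26.98%) against 1.61% (1.10 to 2.28%). Cd74, the invariant chain that accompanies class II, was at 15.2 against 2.87 CPM, and H2-Aa, the alpha partner of H2-Ab1, was above 0 in 0.425% against 0.571% of cells. Dendritic cell markers moved in both directions. The list sum, Ccr7 and Fscn1 were lower with MDSCs, as H2-Ab1 was, while Batf3 was higher, as given above. The part of these markers in the result was not tested. In the library with MDSCs Cd74 was found in 19.3% of the 1272 cells with H2-Eb1 and in 10.8% of the rest, Cd3e in 92.2% and 90.4%, and the myeloid lysozyme gene Lyz2 in 0.157% and 0.136%. The level that free RNA alone would give H2-Eb1 was not measured. Markers of monocytes moved with H2-Eb1: over the 8 monocyte and macrophage markers the summed level was 68.3 CPM with MDSCs and 34.0 CPM without, most of it Ctss (46.8 against 25.03 CPM), a cathepsin, and Cd68 (18.2 against 4.40 CPM). Without the 1177 cells with MDSCs (23.8%) and 225 cells without (11.7%) that held any granulocyte or monocyte marker other than Ctss, the log2 ratio of H2-Eb1 was 4.15, against 4.81 over all cells.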

How the data were processed

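FACS-enriched OT-I CD8+ T cells were profiled on the 10x Genomics platform, per the labels' protocols. The submitters' processing notes name Cell Ranger 2.0.1, Seurat and the mouse build mm10, but not how each was used. The values deposited by the authors are natural log values, and each equals log(n + 1) for a whole number n (tolerance 1e-06). The sources used here do not give the method of depth adjustment, so no count model was used and the depth is unknown.

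The table adjusted for 72 h alone (13601 genes) was used, and groups came from the deposited cell annotation. Values were back-transformed, summed per gene and library, and scaled per 1000000. Genes were counted at 2-fold where 1 of the libraries reached 50 CPM, and list members at 10 CPM or more at 1.5-fold. A gene's change was called led by the share at 66.7% or more of the log2 ratio and by the level under 33.3%. A quartile moved when it differed 1.5-fold, which a gene spreading from few to most cells also meets. The comparison of shares with scattered counts (limit 75%) was chosen after seeing the data, as were members named outside the rule. That rule named the 12 genes with the largest ratio in each direction, the 2 leading members of each list in each direction at 20 CPM or more, the 6 genes in each direction with the largest share part and the 6 with the most extreme probability, and a fixed set of T cell genes. The compared cells, lists and rules were chosen with earlier results of these data known. Probabilities split ties. Shares have exact Clopper-Pearson 95% intervals. Promoter windows came from RefSeq (GRCm38.p6). The computations were tested on simulated data for genes of intermediate mean, and their behaviour at the low means of many genes here was not tested. Barcode sequences found in both 72 h libraries numbered 17, and doublets were not treated. Python 3.11.15 with numpy 2.4.6, scipy 1.17.1 and pandas 2.3.3 was used. The alternatives were another table, level, total, centring, minimum, cell set, cap or limit for a positive cell.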

Additional observations from a re-analysis of the deposited data

Results flagged for a closer look

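In values adjusted over all time points, 8 of the 47 higher and 11 of the 136 lower genes differed by 2-fold or more in the opposite direction at 24 h, with no minimum level at that time. Of these, 2 genes that reached 50 CPM in either library at both times differed by 2-fold or more in opposite directions at 24 h and 72 h. Serpine2, a secreted protease inhibitor, had a log2 ratio, with MDSCs over without, of -2.68 at 24 h (19.9 against 128 CPM) and 3.75 at 72 h (168 against 12.5 CPM). Cdkn1a had a log2 ratio of -1.34 at 24 h (28.9 against 73.2 CPM) and 1.16 at 72 h (395 against 177 CPM). The differences between the times were not tested, and each rests on 1 library per group.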

How the results depend on the processing

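None of the 142 named genes or 38 list medians reversed a called direction under any alternative that bore on them, but 4 list medians near 0 changed sign under at least 1: amino acid transport (between -0.03 and 0.11), Bcl-2 and caspase genes (-0.14 to 0.14), G2 and M phase (-0.30 to 0.02) and MHC class II (-0.20 to 0.12). Of 418 recomputed list medians 417 moved by less than 1.5-fold, the exception being the metallothioneins (-1.33, against -0.69, when levels came from mean natural log values), and of 1562 recomputed gene ratios 1559 did. The moved ones were S100a4 (2.54 with that level), Havcr2 (-0.31 in cells with a middle number of genes above 0) and H2-Eb1, given above. The count of genes depended on the minimum level. At 10 CPM, 131 genes were higher, 367 lower and 352 led by the share, and at 200 CPM 9 were higher, 39 lower, 0 led by the share and 48 moved in all quartiles. Genes led by the share (44) numbered 12 with the level from the mean natural log value, 121 with a total that left out ribosomal protein and mitochondrially encoded genes, and 134 when a cell counted only above 1. The number higher (47) was 79 with that total and 74 in cells with a middle number of genes above 0, and all 47 were among both. Weighting cells with MDSCs to the cell cycle sets of cells without left 45 of the 47 and 128 of the 136 lower genes, and leaving out barcodes found in both libraries left all of them; these and the exclusion of cells with granulocyte or monocyte markers were chosen after seeing the data. The cause of these changes was not tested. No paired analysis was possible because each group was 1 library. Unknown depth limits low genes: a transcript at few adjusted counts cannot show whether a cell at 0 lacks it.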

Other observations

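Genes that respond to amino acid supply moved in both directions at 72 h. Of 23 measured genes of the integrated stress response, the programme that answers amino acid shortage, 5 were at least 1.5-fold higher and 5 lower, against 7.98% and 14.8% of all genes, and the median log2 ratio was 0.20. Asns, asparagine synthetase, was at 74.8 against 40.6 CPM, Phgdh, of serine synthesis, at 492 against 297 CPM, and Trib3, a pseudokinase, at 18.5 against 39.8 CPM. The sum over the list had a median of 28 with MDSCs and 27 without (probability 0.532), and 7.77% of cells with MDSCs lay above the 95th percentile of cells without. Of 20 tRNA synthetase genes 1 was higher and 1 lower, and of 8 amino acid transport genes none was higher and 1 was lower. Ass1, which makes arginine from citrulline through argininosuccinate, was at 130 against 59.6 CPM and above 0 in 77.4% against 53.1% of cells.

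Peroxiredoxin genes moved in both directions. Prdx1 was at 823 against 474 CPM and Ftl1, the ferritin light chain, at 2730 against 1552 CPM, with 33.5% of cells with MDSCs above the 95th percentile of cells without. Prdx4 and Prdx5 were lower, at 40.3 against 102 CPM and 278 against 579 CPM. Of 21 measured redox genes 3 were higher and 4 lower, against 7.98% and 14.8% of all genes.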
